A study of Danio rerio with 6 samples.

Results

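The handling of iron was followed through 10 genes of uptake, storage, release and sensing in whole kidney marrow (WKM), where adult zebrafish make blood: tfr1a, tfr1b, tfr2, slc11a2, slc40a1, fth1a, hmox1a, hamp, ireb2 and aco1. Each was matched by gene name to 1 row of a table of 32057 genes, so all 10 of 10 were found, and all 10 passed the filter on low counts that left 20123 genes for testing. WKM cells came from double transgenic Tg(drl:hoxa9;hsp70:meis1) zebrafish, called Tg here, and from WT zebrafish of the AB strain. In Tg, hoxa9 stands under the drl regulatory element, which is active in blood lineages and other derivatives of the lateral plate mesoderm, and meis1 stands under the heat shock promoter hsp70, which is not restricted to blood. Cells of 3 kidneys were pooled into each sample, and 3 pools were sequenced per genotype. The labels and methods put the fish at 5 months of age, and the text of the results at 3 months. No source used here ties a heat shock schedule to the sequenced fish, Tg or WT.

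Iron travels in plasma on transferrin, enters cells through transferrin receptors, and crosses the endosome membrane through the transporter encoded by slc11a2. Developing red cells are the main users, since they build haem, and macrophages that digest old red cells return iron to plasma through ferroportin, the product of slc40a1. Inside cells ferritin stores the surplus, and the iron regulatory proteins encoded by aco1 and ireb2 bind messenger RNAs of receptor and ferritin genes when iron is scarce. Hepcidin, the hormone encoded by hamp, is made mainly by the liver and lowers ferroportin at the cell surface.

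Total counts were 50767535 to 64055374 in Tg and 53620374 to 64888212 in WT. Reads of hoxa9a stood at 64.5 to 101 CPM in Tg and at 0 to 0.960 CPM in WT (CPM, counts per 1000000 after TMM scaling of the library size). Blood markers were abundant in every pool, with lyz of neutrophils at 9111 to 15847 CPM in Tg and 7286 to 12829 CPM in WT, and hbaa1 of red cells at 8320 to 23097 CPM in Tg and 12677 to 23387 CPM in WT. Other tissues were present too. Summed over 16 rows, kidney tubule markers read 1691 to 2005 CPM in Tg and 2366 to 5765 CPM in WT, highest in WT replicate 1. All 15 tubule rows tested had negative log2 fold changes of Tg over WT (median -1.17). In 12 of them every Tg pool lay below every WT pool, beside 14.1% of all genes. Liver markers, summed over 14 rows, read 59.2 to 102 CPM in Tg and 60.7, 117 and 901 CPM in WT replicates 1, 2 and 3. Oocyte markers, 8 rows, summed to 669, 1.62 and 2.22 CPM in Tg replicates 1, 2 and 3 and 131, 293 and 59.3 CPM in WT replicates 1, 2 and 3. In bulk RNA, fewer cells of a type and less RNA per cell cannot be told apart.

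Of the 10 genes, the transferrin receptor genes tfr2 and tfr1b and the sensor gene ireb2 stood higher in all Tg pools, short of the threshold after adjustment. The fitted level of tfr2 was 3.21-fold that of WT (95% interval 1.98 to 5.19) and of tfr1b 1.62-fold (1.21 to 2.16), with every Tg pool above every WT pool, while tfr1a overlapped between genotypes at 1.28-fold (0.90 to 1.82). No member of the 10 passed edgeR's quasi-likelihood test at an FDR under 0.05, a threshold that 0.224% of all genes tested passed as higher in Tg and 0.373% as lower. At an unadjusted p under 0.05, 3 of 10 members were higher (tfr2, tfr1b and ireb2) and none lower, beside 9.07% and 10.8% of all genes. Every Tg pool lay above every WT pool for the same 3 genes, which held for 14% of all genes, and below for none, which held for 14.1%. By DESeq2, the tool of the study, tfr2 and tfr1b passed at an FDR under 0.05, as did 2.95% of all genes with an adjusted p in the higher direction and 6.52% in the lower. By limma-voom no member passed, with 3 at an unadjusted p under 0.05.

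**Figure D1:**
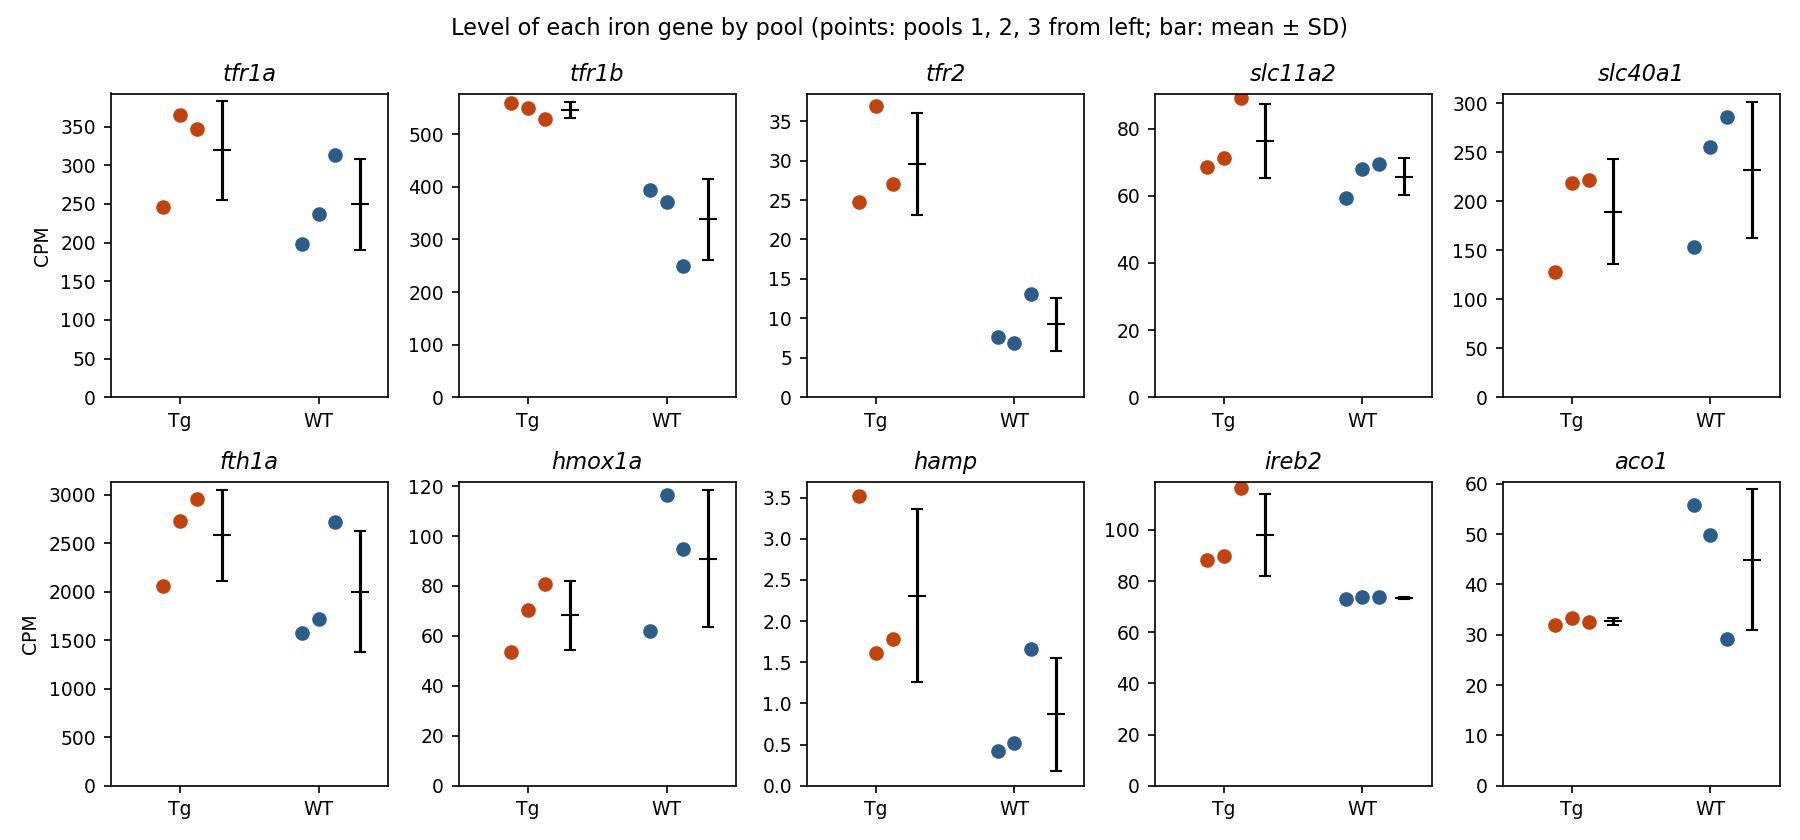
Level of each of the 10 iron genes in CPM (vertical axes from 0, scaled per gene), with Tg pools in red on the left and WT pools in blue on the right, pools 1 to 3 from left to right, and the mean ± SD over 3 pools in black. The Tg pools of tfr2 (24.8 to 37.0 CPM), tfr1b (530 to 560 CPM) and ireb2 (88.1 to 117 CPM) lie above all WT pools, and the other 7 genes overlap.

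The receptor gene tfr2 showed the steepest difference. In mammals Tfr2 senses iron-loaded transferrin in liver cells and sits with the erythropoietin receptor on red cell precursors. It read 24.8, 37.0 and 27.1 CPM in Tg replicates 1, 2 and 3, against 7.69, 6.90 and 13.1 CPM in WT replicates 1, 2 and 3. The lowest Tg pool was thus above the highest WT pool, WT replicate 3. That WT pool also had the highest sum of liver markers (901 CPM), and the part of liver RNA in tfr2 was not tested. The means were 29.6 ± 6.46 CPM in Tg and 9.23 ± 3.38 CPM in WT (SD, n = 3 pools each). This gave a log2 fold change for Tg over WT of 1.68 (standard error 0.30, 95% interval 0.98 to 2.38), with an adjusted p of 0.0683 by edgeR's quasi-likelihood test. DESeq2 gave 1.67 (standard error 0.31) and an adjusted p of 9.3e-06. Leaving out 1 pool at a time moved the value between 1.49 and 2.00, with an edgeR adjusted p of 0.0740 to 0.213.

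Next in size among the genes whose pools did not overlap was tfr1b. In zebrafish it is the copy of the transferrin receptor known for iron uptake outside the red cell lineage. Its level was 560, 550 and 530 CPM in Tg replicates 1, 2 and 3, against 394, 371 and 250 CPM in WT replicates 1, 2 and 3. The Tg pools were close together and the WT pools more spread, with WT replicate 3 lowest. Means were 546 ± 15.6 CPM in Tg and 338 ± 77.5 CPM in WT (SD, n = 3 pools each), or 0.69 on the log2 scale (95% interval 0.27 to 1.11, standard error 0.18, adjusted p = 0.114 by edgeR). The DESeq2 value was 0.67 (standard error 0.20, adjusted p = 0.0151), and leaving out WT replicate 3 brought the edgeR value to 0.49.

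The other copy, tfr1a, serves red cell precursors in zebrafish, where its loss leaves them pale. It read 246, 365 and 346 CPM in Tg replicates 1, 2 and 3, against 198, 237 and 313 CPM in WT replicates 1, 2 and 3. Tg replicate 1, the lowest Tg pool, lay inside the WT range. On the log2 scale Tg stood 0.36 above WT (95% interval -0.15 to 0.86, standard error 0.22, adjusted p = 0.412 by edgeR), an interval that holds both 0 and a level 1.82-fold that of WT. The ratio of tfr1b to tfr1a within a pool was 2.28, 1.51 and 1.53 in Tg and 1.99, 1.57 and 0.797 in WT, in replicate order, and overlapped between genotypes. Its mean log2 difference of 0.36 became -0.02 without WT replicate 3.

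Levels of red cell markers differed among pools of the same genotype. The geometric mean of 18 tested erythroid rows was 134, 195 and 232 CPM in Tg replicates 1, 2 and 3 and 144, 170 and 247 CPM in WT replicates 1, 2 and 3. Before averaging, 0.5 CPM was added to each value. An SLC4A1 row of the list (ENSDARG00000024560) held only 0 to 0.610 CPM. The erythroid row of tal1 is also in the list of stem and progenitor cells. None of the 18 rows passed the test, and their median log2 fold change was 0.016. Replicate 1 was the lowest pool of its genotype for this level and also for tfr1a, slc11a2, slc40a1, fth1a, hmox1a and ireb2 in both Tg and WT. Divided by the erythroid level, tfr1a stood at 1.83, 1.87 and 1.49 in Tg and 1.37, 1.40 and 1.26 in WT, and no longer overlapped. The same division was made for tfr2, fth1a and tfr1b after their levels were seen. It gave 0.185, 0.190 and 0.117 in Tg and 0.0533, 0.0407 and 0.0530 in WT for tfr2. For tfr1b the ratios were 4.18, 2.82 and 2.28 in Tg and 2.73, 2.19 and 1.01 in WT, which overlapped. These ratios are descriptions of the pools and were not tested. The share of all genes that separate under the same division was not counted. The members slc11a2, slc40a1, hamp, ireb2 and aco1 were not divided.

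**Figure D2:**
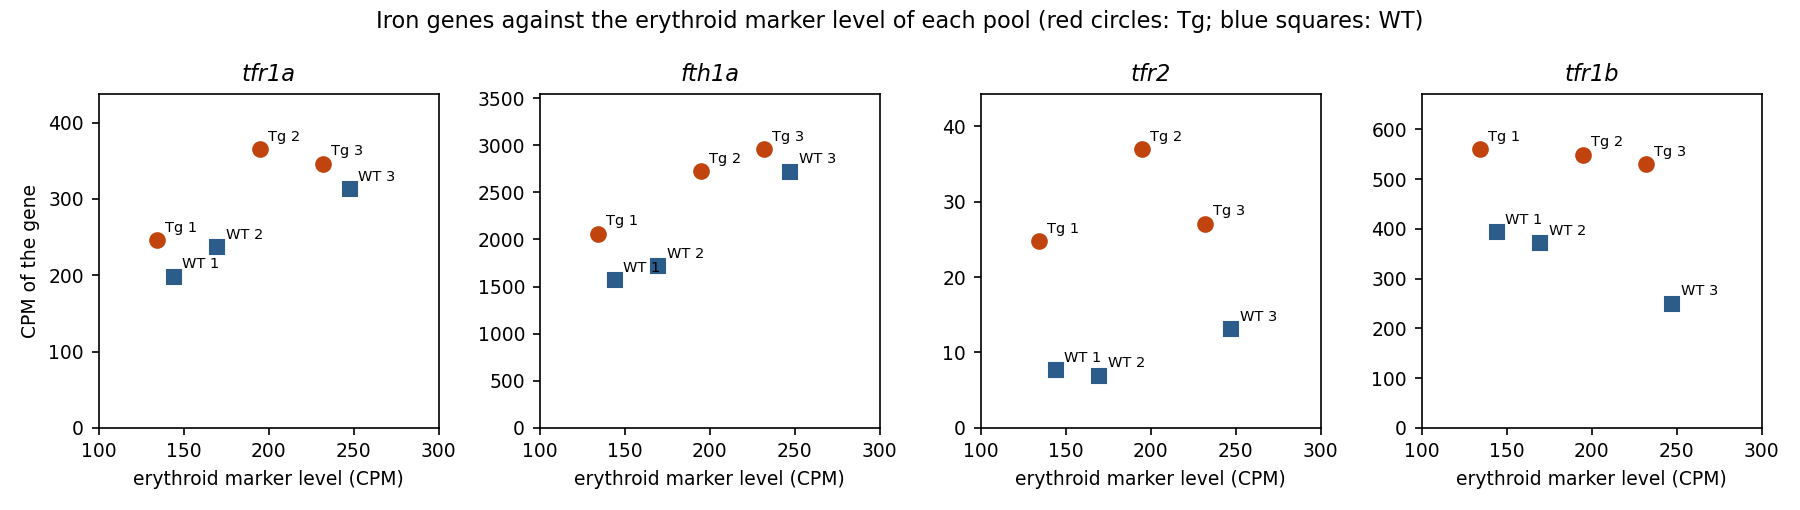
CPM of tfr1a, fth1a, tfr2 and tfr1b (vertical axes from 0) against the erythroid marker level of the same pool (horizontal axis in CPM, not from 0, geometric mean over 18 rows), Tg as red circles and WT as blue squares. For tfr1a and fth1a the pools of each genotype lie higher where the erythroid level is higher, except for Tg replicate 2 of tfr1a, whereas tfr1b is lowest in WT replicate 3 (250 CPM), the pool with the highest erythroid level (247 CPM).

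Receptor levels stood beside a shift in progenitor markers. Of 11 rows of stem and progenitor cells, 5 passed the test as higher in Tg (gata2b, kita, cd34, meis1b and gfi1ab) and none as lower. Over all genes, 0.224% passed as higher and 0.373% as lower. Log2 fold changes were positive in 9 of the rows and negative in runx1 (-0.08) and gfi1aa (-0.30), which overlapped between genotypes. The list summed to 1098 to 1307 CPM in Tg and 596 to 677 CPM in WT. The study had already named gata2b, gfi1ab and meis1b as upregulated in these same samples, so the count of 5 is not independent of its report. The meis1b row can hold reads of the transgene. Of 11 neutrophil rows none passed, and 3 were higher at an unadjusted p under 0.05, beside 9.07% of all genes. Log2 fold changes were positive in 8 neutrophil rows and negative in 3 (csf3r, cebpa and mmp13a). The neutrophil rows summed to 20071 to 33928 CPM in Tg and 14867 to 24822 CPM in WT. Of 12 lymphoid rows tested none passed, and 3 were higher and 0 lower at an unadjusted p under 0.05, beside 9.07% and 10.8% of all genes. Log2 fold changes were positive in 11 of these rows and negative in 1. The part of progenitor, neutrophil and lymphoid content in the levels of tfr2 and tfr1b was not tested.

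Of the genes that handle iron after the receptor, slc11a2, which moves ferrous iron out of the endosome, read 68.6, 71.3 and 89.0 CPM in Tg and 59.4, 68.1 and 69.6 CPM in WT, in replicate order. The pools overlapped, and the log2 fold change of 0.22 had an interval of -0.12 to 0.55 (adjusted p = 0.454 by edgeR), whose upper end is a 1.47-fold level. The row of steap3, an endosomal iron reductase, also overlapped, with Tg 0.45 above WT on the log2 scale (adjusted p = 0.512 by edgeR, standard error 0.34).

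The ferritin heavy chain gene fth1a encodes the subunit that oxidises iron for storage. It read 2060, 2728 and 2958 CPM in Tg replicates 1, 2 and 3, against 1570, 1717 and 2719 CPM in WT replicates 1, 2 and 3. The genotypes overlapped, since WT replicate 3 lay above Tg replicate 1. Tg over WT gave 0.37 on the log2 scale (95% interval -0.22 to 0.95, standard error 0.25, adjusted p = 0.464 by edgeR), which moved between 0.22 and 0.63 when 1 pool was left out. Relative to the erythroid level, fth1a stood at 15.4, 14.0 and 12.8 in Tg and 10.9, 10.1 and 11.0 in WT, a division that set the genotypes apart. Within a pool, the summed CPM of tfr1a and tfr1b over that of fth1a was 0.391, 0.335 and 0.296 in Tg and 0.377, 0.354 and 0.207 in WT, and the genotypes overlapped. The mean log2 difference of this ratio was 0.16, and -0.11 without WT replicate 3.

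Ferroportin carries iron out of cells, and its gene slc40a1 read 127, 219 and 221 CPM in Tg replicates 1, 2 and 3, against 153, 255 and 286 CPM in WT replicates 1, 2 and 3. The genotypes overlapped, with the lowest pool of each being replicate 1. Its log2 difference was -0.29 (standard error 0.29, 95% interval -0.98 to 0.39, adjusted p = 0.631 by edgeR), and -0.07 without Tg replicate 1. Relative to fth1a in the same pool, slc40a1 stood at 0.0619, 0.0802 and 0.0747 in Tg and 0.0977, 0.149 and 0.105 in WT. On this untested ratio every Tg pool lay below every WT pool, with a mean log2 difference of -0.68. How often ratios of other gene pairs separate was not counted.

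Haem oxygenase, the product of hmox1a, opens the haem ring and frees its iron. Its row is the only one named HMOX1 in the name table, and the paralogue hmox1b was not matched to a row of its own. It read 53.4, 70.5 and 80.8 CPM in Tg replicates 1, 2 and 3, against 61.8, 116 and 94.7 CPM in WT replicates 1, 2 and 3. WT replicate 1 lay among the Tg pools. For Tg over WT the log2 value was -0.41 (standard error 0.26, 95% interval -1.02 to 0.19, adjusted p = 0.422 by edgeR). It was -0.63 without WT replicate 1 and -0.20 without WT replicate 2. Relative to the erythroid level, hmox1a overlapped between genotypes (0.398, 0.362 and 0.348 in Tg against 0.428, 0.685 and 0.383 in WT).

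Macrophages recycle iron with ferroportin and haem oxygenase, and their markers are given beside these genes. Of 21 macrophage rows tested none passed, and 5 were lower at an unadjusted p under 0.05, beside 10.8% of all genes. Log2 fold changes were positive in 4 rows and negative in 17 (median -0.60), against 50.9% positive over all genes. Of the tested rows, 8 share the symbol MFAP4, so the rows are not independent markers. All rows summed to 3055 to 3914 CPM in Tg and 3516 to 4745 CPM in WT. The row with the smallest p of this list was the growth factor receptor gene csf1ra. It read 80.8, 82.8 and 96.3 CPM in Tg and 132, 179 and 231 CPM in WT. Its adjusted p was 0.0770 by edgeR. Every Tg pool lay below every WT pool for 7 of the 21 tested rows, csf1ra among them, and above for 0. Over all genes the shares were 14.1% below and 14% above. The rows that overlapped between genotypes included marco (log2 fold change -0.14), cd63 (0.18), mrc1a (0.09) and havcr1 (0.05). The row of spic, a factor of red pulp macrophages in mice, held 4 counts in Tg, all in replicate 3, and 4 in WT, all in replicate 2. The part of macrophage content in slc40a1 and hmox1a was not tested.

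The genes of the iron regulatory proteins had fold changes of opposite sign. Iron regulatory protein 2, the product of ireb2, is removed by proteasomes when iron is ample. Its gene read 88.1, 89.7 and 117 CPM in Tg replicates 1, 2 and 3, against 73.0, 73.7 and 73.8 CPM in WT replicates 1, 2 and 3. All Tg pools lay above the closely spaced WT pools. They differed by 0.42 on the log2 scale (standard error 0.14, 95% interval 0.09 to 0.74, adjusted p = 0.172 by edgeR and 0.109 by DESeq2), and 0.27 without Tg replicate 3. The row of fbxl5, which marks that protein for removal, read 46.6, 49.0 and 50.1 CPM in Tg and 49.9, 37.0 and 36.8 CPM in WT, and overlapped.

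Iron regulatory protein 1, the product of aco1, works as an aconitase while it carries an iron-sulphur cluster and binds RNA when it has lost it. Its gene read 32.0, 33.4 and 32.6 CPM in Tg replicates 1, 2 and 3, against 55.7, 49.8 and 29.1 CPM in WT replicates 1, 2 and 3. WT replicate 3 was the lowest of all 6 pools, and the other WT pools were the highest. The log2 fold change was -0.46 (standard error 0.24, 95% interval -1.02 to 0.10, adjusted p = 0.337 by edgeR), -0.71 without WT replicate 3 and -0.27 without WT replicate 1. WT replicate 1 also had the highest level of kidney tubule markers, whose part in aco1 was not tested. The ratio of aco1 to ireb2 within a pool was 0.363, 0.372 and 0.280 in Tg and 0.764, 0.676 and 0.395 in WT. It was lower in every Tg pool, with a mean log2 difference of -0.81 that was not tested. How often ratios of other gene pairs separate was not counted.

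**Figure D3:**
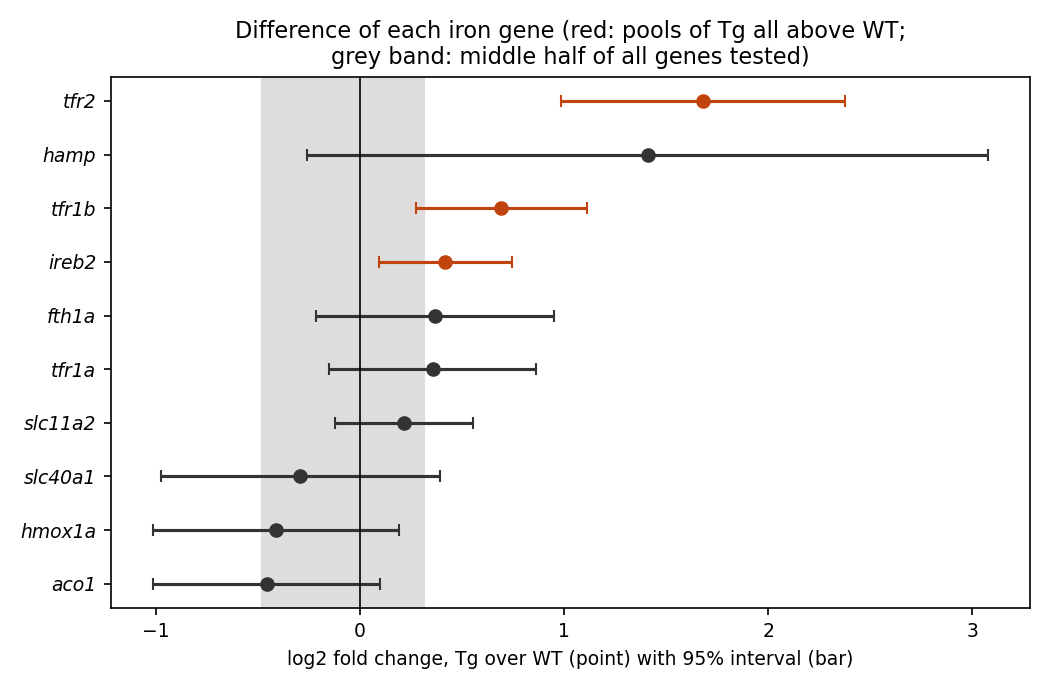
Log2 fold change of Tg over WT (horizontal axis) for the 10 iron genes, with 95% intervals of the quasi-likelihood fit as bars, genes whose Tg pools all lie above the WT pools in red, and the span from the 25th to the 75th percentile of all 20123 genes tested as a grey band. The intervals of tfr2 (0.98 to 2.38), tfr1b (0.27 to 1.11) and ireb2 (0.09 to 0.74) lie above 0 before adjustment for the number of genes, and that of hamp is the widest.

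Few reads were counted for hepcidin. The hamp row held 188, 80 and 107 counts in Tg replicates 1, 2 and 3, or 3.52, 1.62 and 1.79 CPM, against 23, 29 and 109 counts in WT replicates 1, 2 and 3, or 0.417, 0.520 and 1.66 CPM. Tg replicate 1 was the highest pool, and WT replicate 3 lay between the other Tg pools. The log2 fold change of 1.41 had a standard error of 0.71 and a 95% interval of -0.26 to 3.08 (adjusted p = 0.324 by edgeR). It was 2.27 without WT replicate 3 and 0.97 without Tg replicate 1. 

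WT replicate 3 held the highest level of liver transcripts. The transferrin gene tfa read 28.3, 3.37 and 4.14 CPM in Tg and 0.671, 9.61 and 314 CPM in WT, and fga, a fibrinogen chain, 0.431, 0.243 and 0.951 CPM in Tg and 0, 0.287 and 28.3 CPM in WT. Haemopexin (hpxa) and haptoglobin (hp), plasma scavengers of haem and haemoglobin, had no count in Tg, 4 and 0 counts in WT replicate 2, and 1652 and 72 counts in WT replicate 3. The plasma ferroxidase gene cp read 20.4, 9.28 and 2.25 CPM in Tg and 4.03, 27.1 and 93.7 CPM in WT. WT replicate 3 was the highest WT pool in all 14 liver rows and in hamp. Tg replicate 1, highest for hamp, was the highest Tg pool for tfa, cp and rbp4 and for no other liver row. Of 9 liver rows tested, 8 had negative log2 fold changes, against a positive one for hamp, and apobb.1 and apoa2 were lower in every Tg pool. The part of liver RNA in the hamp values was not tested.

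**Figure D4:**
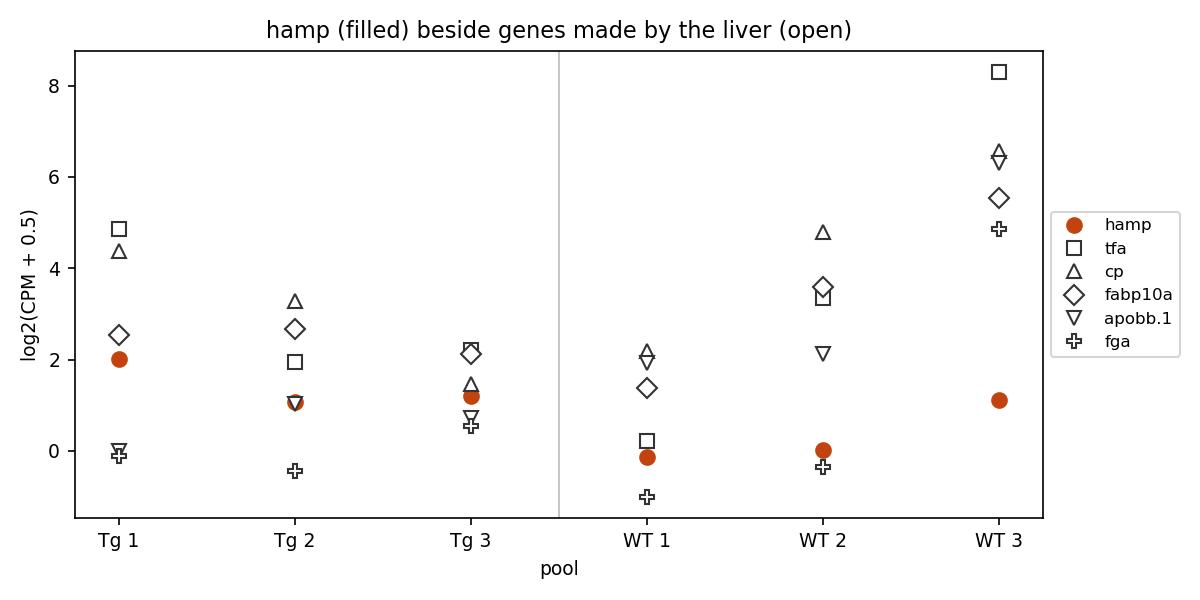
Log2(CPM + 0.5) of hamp (filled red) and of 5 genes made by the liver (open symbols) in each pool, Tg pools on the left and WT pools on the right of the line. WT replicate 3 has the highest value of tfa (314 CPM), cp (93.7 CPM) and fga (28.3 CPM), and hamp reaches 1.66 CPM there against 0.520 CPM or less in the other WT pools.

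Beyond the 10 members, 68 rows of a wider iron pathway list were examined, of which 60 were tested. None passed edgeR's test at an FDR under 0.05 (limma-voom also gave none, and DESeq2 gave steap4), 3 were higher and 2 lower at an unadjusted p under 0.05, and the median log2 fold change was -0.05, against 0.01 over all genes tested. All Tg pools lay above all WT pools for 4 of the 60 rows and below for 3, beside 14% and 14.1% of all genes. At an unadjusted p under 0.05, the shares over all genes were 9.07% higher and 10.8% lower.

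Among uptake genes, steap4, a plasma membrane metalloreductase also known from inflammation, read 27.1, 15.3 and 7.96 CPM in Tg and 55.1, 35.6 and 42.4 CPM in WT. Its log2 fold change was -1.40 (standard error 0.42, adjusted p = 0.145 by edgeR and 0.00881 by DESeq2). The mfi2 row, which encodes the membrane-bound transferrin relative melanotransferrin, read 1.42, 5.70 and 6.41 CPM in Tg and 22.9, 6.60 and 9.33 CPM in WT (adjusted p = 0.262 by edgeR). It was highest in the WT pool with the most tubule RNA, and the other WT pools also lay above every Tg pool. The part of tubule RNA in steap4 and mfi2 was not tested. The other 7 rows of that group outside the members overlapped between genotypes.

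Like fth1a, the other storage genes all overlapped between genotypes. The iron chaperone gene pcbp2 read 181, 187 and 214 CPM in Tg and 175, 175 and 184 CPM in WT, and the ferritin-like gene fthl27 192, 135 and 236 CPM in Tg and 132, 386 and 175 CPM in WT. Adjusted p values were 0.579 and 0.735 by edgeR. The 7 tested rows outside fth1a had log2 fold changes from -0.30 to 0.14, and ncoa4, the receptor that carries ferritin to lysosomes, stood at 0.14. Ferritin-like copies resemble each other in sequence, and no source used here says how the counting shared out such reads.

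In the export group cp stood at -1.97 on the log2 scale (standard error 1.12, adjusted p = 0.383 by edgeR) with its highest value in the liver-rich WT pool. The part of liver RNA in cp was not tested. SLC48A1, a lysosomal haem transporter in 2 rows, read 16.6, 21.6 and 17.5 CPM in Tg and 19.2, 25.5 and 22.7 CPM in WT in the row with the smaller p (ENSDARG00000026109, adjusted p = 0.447 by edgeR). In the haem breakdown group the haemopexin copy hpxb read 7.31, 16.5 and 13.4 CPM in Tg and 4.46, 6.53 and 8.11 CPM in WT (log2 fold change 0.96, standard error 0.37, adjusted p = 0.215 by edgeR). The nfe2l2a row, for the Nrf2 factor that switches on haem oxygenase genes, stood at 0.19 (adjusted p = 0.572). The repressor bach1a, which keeps such genes off, stood at -0.20 (adjusted p = 0.623).

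Regulators of hepcidin and of hypoxia responses showed no separation. SMAD6, a brake on bone morphogenetic protein signals, had a log2 fold change of -0.66 in 1 of its rows (ENSDARG00000031763, adjusted p = 0.411), and EPAS1, which encodes hypoxia-inducible factor 2 alpha, of -0.61 in 1 of its rows (ENSDARG00000008697, adjusted p = 0.428). The other row stood at -0.16 for SMAD6 and, with the opposite sign, at 0.29 for EPAS1. All 4 rows of these paralogues overlapped between genotypes. The bone morphogenetic protein co-receptor gene hjv had 8 counts in Tg, all in replicate 3, and 34 in WT, all in replicate 2, and was not tested.

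Mitochondria are where haem and iron-sulphur clusters are made. Of 19 tested rows of that group 10 had positive and 9 negative log2 fold changes, with a median of 0.06. All Tg pools lay above all WT pools for 4 of the 19 rows and below for 1, fdx1, beside 14% and 14.1% of all genes. The ferredoxin gene fdx1, which hands electrons to cluster assembly and to steroid synthesis, read 22.6, 19.1 and 21.1 CPM in Tg and 38.2, 28.0 and 28.1 CPM in WT (log2 fold change -0.59, standard error 0.17, adjusted p = 0.135 by edgeR). The part of tubule RNA in fdx1 was not tested. The row of slc25a37, the mitoferrin that brings iron into mitochondria of red cell precursors, stood at 0.43 on the log2 scale and overlapped (adjusted p = 0.506 by edgeR).

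**Figure D5:**
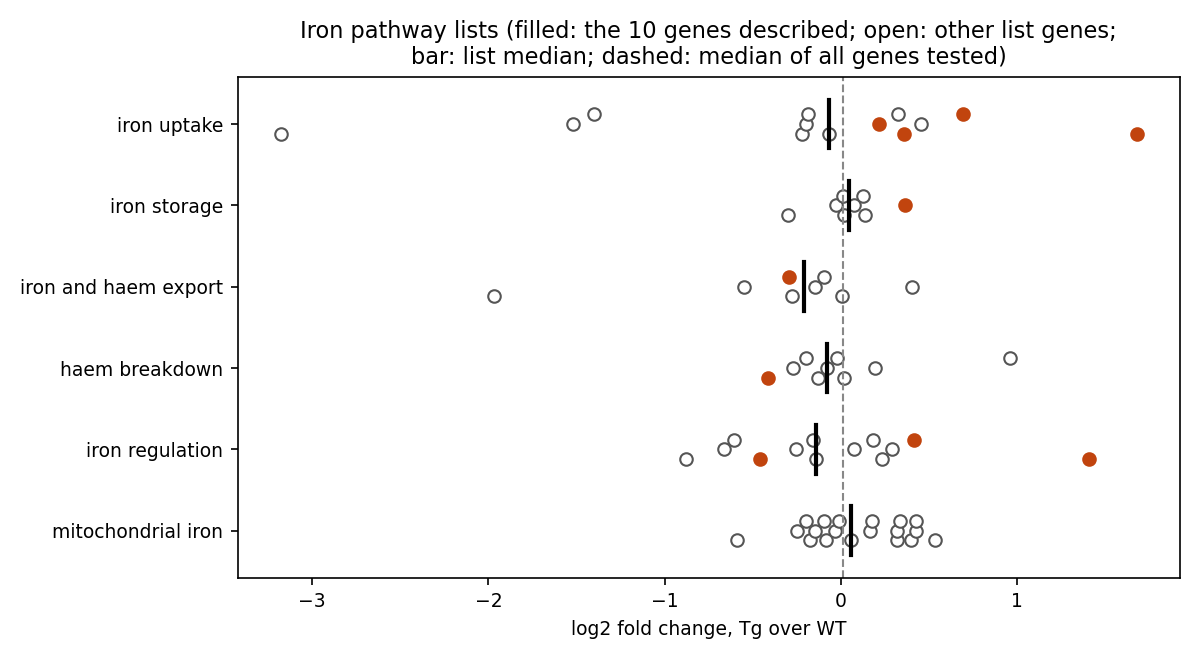
Log2 fold change of Tg over WT (horizontal axis) for every tested row of the 6 iron pathway lists, with the 10 genes described filled and other rows open, the list medians as black bars and the median of all genes tested (0.01) as a dashed line. The receptor genes tfr2 and tfr1b stand at the right end of the uptake list and tfa at its left end, and list medians lie between -0.21 and 0.06.

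As a description of pattern, tfr2 and tfr1b were set beside 12249 other genes with a symbol and a mean of at least 5 CPM. The genes whose log2 levels ran closest to tfr1b over the 6 pools were COPB2, a coat protein of Golgi vesicles, NRAS and elavl1a (Pearson's r of 0.997, 0.996 and 0.995), and those closest to tfr2 were si:ch211-227n13.3, OSER1 and PPP2R5E (0.994, 0.990 and 0.990). The 6 points share the genotype difference, and 138 and 101 genes exceeded an r of 0.95 with tfr1b and tfr2, so these names are few of many.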

How the data were processed

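The members and gene lists were chosen with earlier results of these data known. The authors used Cutadapt 1.9 for trimming, HISAT2 2.0.4 for alignment to the GRCz11 build and StringTie 1.3.4d for assembly, and their deposited table holds raw counts per gene, not normalized. No source used here names the step that made whole-number counts or its use of strand. Pools of a genotype are separate samples of 3 kidneys each.

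Symbols came from a name table covering 28988 rows, many under the human symbol. Counts were filtered (filterByExpr), scaled by TMM and tested across 20123 genes with the quasi-likelihood test of edgeR 4.0.16 in R 4.3.3, with Benjamini-Hochberg adjustment. Standard errors are the log2 fold change over the root of F. Alternatives used DESeq2 1.42.0, limma-voom (limma 3.58.1), other scalings, no filter, a replicate block and each pool left out. A count of 0 leaves room for 0.0462 to 0.0591 CPM (3 counts, counting error only). Transcript lengths were not used, so levels of different genes are not ranked by size. Ratios between genes, also uncorrected for length, are compared only across pools. Named genes are the 10 members and, per list, the 2 other rows with the smallest p, with further rows chosen after their values were seen. A row that this rule names is not reported here.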

Additional observations from a re-analysis of the deposited data

How the results depend on the processing

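All 10 members kept the sign of their log2 fold change under the 12 alternatives run. At an FDR under 0.05 with a fold of at least 2, edgeR called 40 genes higher and 73 lower over all genes, DESeq2 280 and 1132, limma-voom 23 and 25, and edgeR with the replicate number as a block 0 and 1 (3481 genes at an unadjusted p under 0.05). Without 1 pool the counts ran from 0 to 28 higher and 0 to 60 lower: 0 and 0 without Tg replicate 2 or Tg replicate 3, 2 and 2 without WT replicate 2, and 0 and 1 without WT replicate 3. Members past the test were 0 in edgeR, 2 in DESeq2 and 0 in every other alternative, the 6 left-out pools included, and of the wider iron pathway rows together with the members 0 in edgeR, 3 in DESeq2 and 0 elsewhere. The cause of the gap between the tools was not tested. Over all genes, deviations of same-numbered pools correlated with r of -0.0746, -0.22 and 0.224 for numbers 1, 2 and 3. Pools of different numbers gave r from -0.253 to 0.325, a range that holds these values. The numbers were therefore not taken as pairs. Replicate 1 was still the lowest pool of both genotypes for the erythroid level, tfr1a, slc11a2, slc40a1, fth1a, hmox1a and ireb2. Without WT replicate 3 the untested mean log2 ratio differences of receptor to ferritin genes and of tfr1b to tfr1a changed sign (-0.11 and -0.02). Under the block, adjusted p was 0.142 for tfr2 and 0.159 for tfr1b. Scaling by library size only shifted the median of all genes by -0.07, and tfr1b then stood at 0.62 and ireb2 at 0.34.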
